A study of Ovis aries with 6 samples.

Results

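Day length was compared in the choroid plexus of ewes that kept their thyroid gland. The comparison sets 2 pools of RNA from ewes held in long days (Long 1 and Long 2) against 2 pools from ewes held in short days (Short 1 and Short 2), which are 4 of the 6 pools of the series. Its members are the genes that passed an expression filter applied by group, 18019 of the 33609 genes listed. Ewes of both groups are labelled as controls, and the single difference that the labels give between them is the rearing condition. RNA of the choroid plexus was extracted from each ewe and mixed in equal amounts into pools of 3 to 4 ewes, so that each group is represented by 2 pools. The design text gives 24 ewes with 8 per group and 7 in the third group, which are numbers that do not add up. The age and breed of the ewes and the length of the exposure to each photoperiod were not given in the sources used here. The third group, of thyroidectomised ewes in long days (THX), entered the expression filter and the scaling. It also entered the fit for the estimate of the spread between pools. PolyA RNA was sequenced and reads were counted per gene. The question was which genes of the choroid plexus respond to photoperiod when the thyroid is present.

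The choroid plexus is a vascular fold in each brain ventricle, covered by an epithelium that secretes the cerebrospinal fluid and forms the barrier between blood and that fluid. Its epithelium makes transthyretin, the carrier of thyroxine in the fluid, and carries receptors for hormones such as prolactin, leptin and serotonin. In seasonal mammals the length of the night is read through melatonin, which sets the output of thyrotropin from the pars tuberalis of the pituitary. Under long days this thyrotropin acts on the cells that line the third ventricle, where the deiodinases DIO2 and DIO3 set the local supply of active thyroid hormone, and the pituitary also releases more prolactin under long days.

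Total counts were 82100653 for Short 1, 48282883 for Short 2, 56083949 for Long 1 and 54384558 for Long 2. Levels are CPM (counts scaled to a common library total, with TMM factors), and the 4 values of a gene are always given in the order Short 1, Short 2, Long 1 and Long 2. Differences are log2 values, Long minus Short, with their 95% interval. With pooled ewes, a p-value reflects how pools vary and says nothing of single animals. Within a group the counts of both pools differed by 28.3 (Short) and 15.8 (Long) times the variance of counting alone, so none was a repeat of the other. Markers of the epithelium were present at high levels, with TTR at 86397, 92709, 107613 and 109231 CPM, the chloride channel CLIC6 at 667, 653, 721 and 679 CPM and the ageing suppressor KL at 1278, 1098, 893 and 978 CPM. KCNE2, a potassium channel subunit of this epithelium, was listed at 0 in all 4 pools. HR, a target of the thyroid hormone receptor, was at 25.6, 25.3, 23.7 and 23.4 CPM, and at 3.36 and 2.76 CPM in the THX pools.

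Hormone genes of the anterior pituitary, a gland that the labels do not name, were counted in every pool and at uneven levels. The 13 tested markers of the pituitary and pars tuberalis, of 16 on the list, summed to 244 and 93.1 CPM in the Short pools and to 49.7 and 161 CPM in the Long pools. Of the defining markers, the melatonin receptor MTNR1A was listed at 0 in all pools, and GHRHR, the receptor for growth hormone releasing hormone, had 71, 5, 0 and 1 counts. TSHB, the beta subunit of thyrotropin, had 24, 30, 15 and 863 counts in the order of pools given above. CGA, the alpha subunit that thyrotropin shares with the gonadotropins, had 2320, 134, 113 and 2398 counts. POMC, the corticotropin precursor, had 1991, 413, 136 and 134 counts, and GH, growth hormone, had 1594, 220, 64 and 117. TSHB was therefore high in Long 2 alone, CGA in Short 1 and Long 2, and GH and POMC in Short 1 with Short 2 next. PRL, prolactin, had 11208, 2542, 1083 and 2725 counts. LHX3, another marker on the list, varied less, at 15.3, 16.4, 12.7 and 15.5 CPM by total counts. The part of pituitary RNA in the differences described below was not tested, and a bulk sample cannot tell fewer cells of a type from less RNA per cell. Beta globin (HBB), a gene of red blood cells, was at 43, 24, 99 and 2906 counts, so Long 2 also stood apart in this gene, and ALAS2, the first enzyme of heme synthesis in red cells, had 0, 0, 1 and 30 counts.

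**Figure D1:**
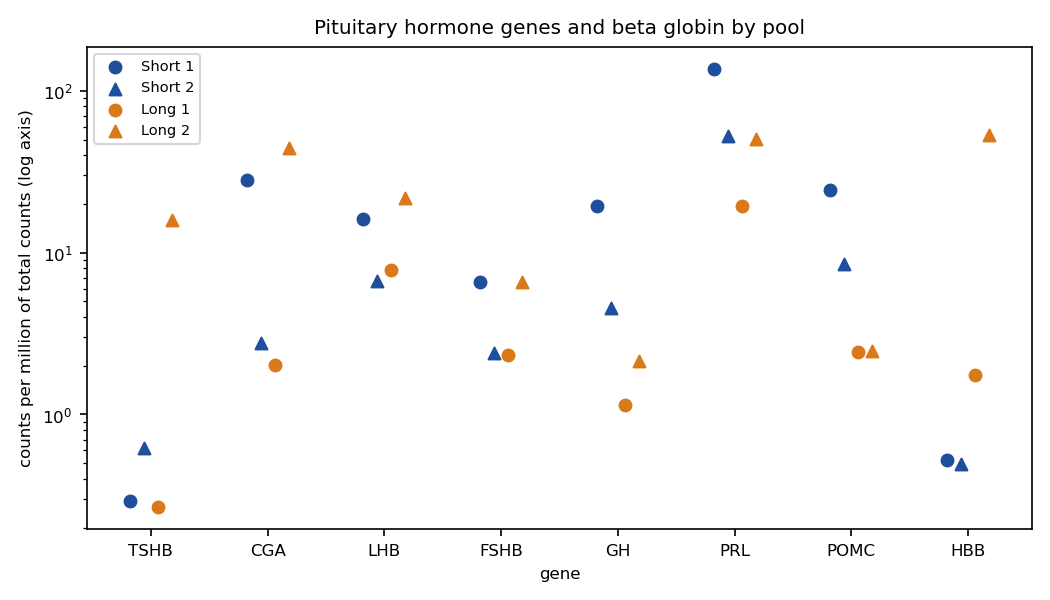
CPM by total counts, without TMM factors (log axis), of pituitary hormone genes and of beta globin, with blue symbols for the Short pools and orange for the Long pools, circles for pool 1 and triangles for pool 2. TSHB and HBB were high in Long 2 alone, and the POMC values of both Short pools lay above those of both Long pools.

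No gene passed the test of day length at an adjusted p under 0.05 (percent called 0 in each direction), and the lowest adjusted p by the quasi-likelihood test of edgeR was 0.342. All genes named below share that adjusted p or have a higher one, so "higher" and "lower" give the direction of values that did not pass. At an unadjusted p under 0.05 there were 2486 genes, 13.8% of those tested, 1166 (6.47%) toward long days and 1320 (7.33%) toward short days. The voom method of limma also called 0. DESeq2 called 167 of the 13128 genes to which it gave an adjusted p, or 1.27%, with 61 (0.465%) higher and 106 (0.807%) lower. All 167 were among the 2486 genes, with a median absolute difference of 0.575 and 27 over 1 on the log2 scale. Both Long pools lay above both Short pools in 4813 genes (26.7%) and below them in 4824 (26.8%), or 53.5% in both directions together. With total counts in place of TMM factors these numbers became 3573 and 6164, and the genes with an unadjusted p under 0.05 became 718 higher and 1848 lower.

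The intervals bound how large a day length effect could be. For 13704 genes (76.1%) the 95% interval of the difference lay within a fold of 2 in either direction, and for 9823 (54.5%) within a fold of 1.5. It lay wholly beyond a fold of 1.5 in 55 genes, and 534 genes (2.96%) had an absolute log2 difference over 1. The number of genes with an unadjusted p under 0.05 was 788 without Short 1, 823 without Long 1, 1034 without Long 2 and 2553 without Short 2. On a principal component analysis of the 4 pools the first component held 43% of the variance, with Short 1 at −37.6, Short 2 at −9.33, Long 1 at 22.9 and Long 2 at 24.1. The second held 30.5% and separated the pools within each day length, with Short 1 at 12.6, Short 2 at −22.6, Long 1 at −18.8 and Long 2 at 28.8.

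**Figure D2:**
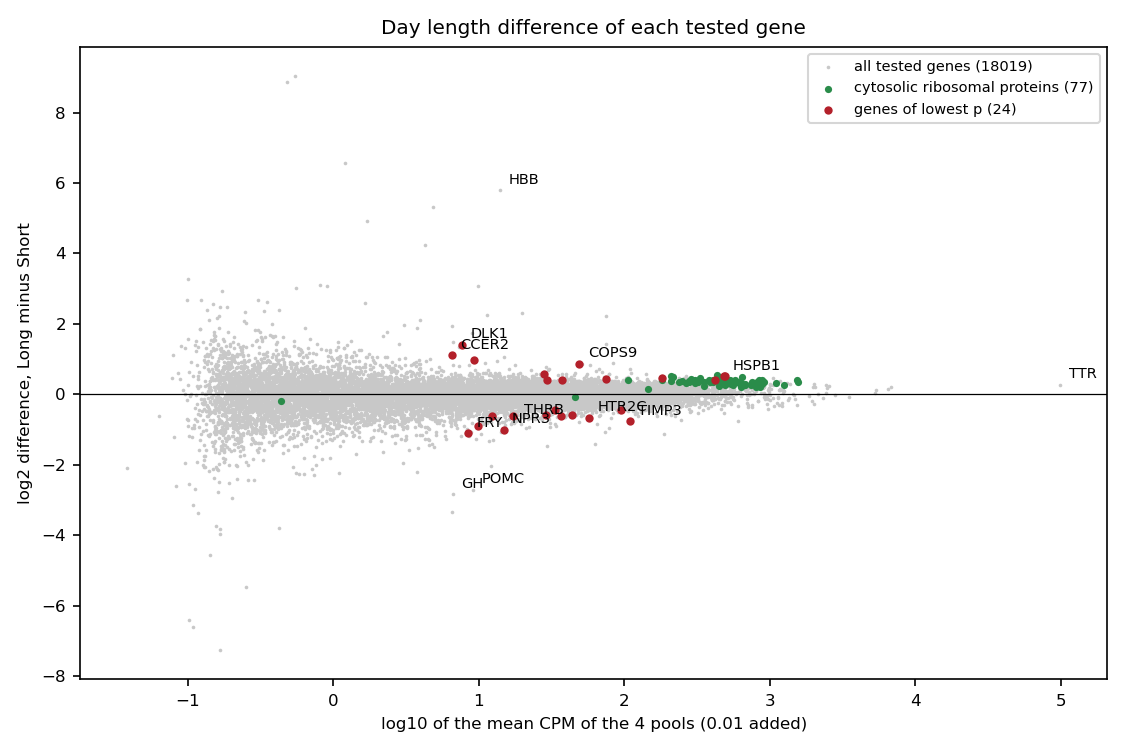
Log2 difference, Long minus Short, against the log10 of the mean CPM of the 4 pools for each of the 18019 tested genes (grey), with the 77 cytosolic ribosomal protein genes in green and the 24 genes of lowest p in red. Most genes of high level lay close to 0, the ribosomal protein genes lay together above 0, and the widest differences were in genes of low level or in single-pool genes such as HBB.

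The gene with the lowest p was HTR2C, the serotonin receptor that is densely placed on choroid plexus epithelium, at 70.4, 69.4, 44.4 and 44.1 CPM. Both Short pools were alike and so were both Long pools, with no overlap and a difference of −0.66 (−0.83 to −0.49), at an adjusted p = 0.342 by edgeR. NPR3, the receptor that clears natriuretic peptides, was at 20.9, 18.6, 10.4 and 9.31 CPM, so that its level in short days was 2.004 times that in long days (log2 difference −1.003, −1.30 to −0.71). TIMP3, a matrix-bound inhibitor of metalloproteases, was at 136, 136, 75.7 and 86.2 CPM, and both Short pools had the same level to 3 digits. Its difference was −0.75 (−1.08 to −0.42). DESeq2 called all of these genes, at adjusted p = 1.39e-08 for HTR2C, 1.27e-07 for NPR3 and 0.000798 for TIMP3.

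The other genes of lowest p that were lower in long days were of mixed function. FRY, a large scaffold of cell polarity, was at 12.3, 10.7, 4.76 and 5.96 CPM, and EPHA7, a receptor of ephrin ligands, was at 14.4, 11.4, 7.297 and 6.53 CPM. The Short pools of both genes lay above their Long pools, by −1.10 and −0.90 on the log2 scale. FAT4, a giant cadherin, had a difference of −0.61, COL17A1, a transmembrane collagen, of −0.59, and MYO3A, a myosin of cell protrusions, of −0.59. LINGO1, a membrane protein that restrains myelination, had −0.62, the septin SEPT8 −0.45 and the asparaginyl-tRNA synthetase NARS −0.46. MRPL17, a protein of the mitochondrial ribosome, was listed under 2 identifiers that lay on opposite sides of 0. The identifier 101116085 was at 47.1, 41.8, 25.9 and 31.9 CPM (−0.62) and 101116599 at 23.9, 30.9, 33.1 and 30.2 CPM (0.21), so the direction of this gene is uncertain.

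The genes of lowest p that were higher in long days include 2 heat shock proteins. HSPB1, a small heat shock protein that binds actin, was at 389, 413, 592 and 549 CPM, with a difference of 0.51 (0.32 to 0.69). HSPA6, an inducible member of the HSP70 family, was at 5.72, 6.63, 10.5 and 13.9 CPM (0.99). In both genes the Long pools lay above the Short pools, and HSPB1 had the lowest DESeq2 adjusted p (9.2e-06) of the higher genes.

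GSN, gelsolin, which severs actin and is secreted, was at 383, 420.4, 622 and 538 CPM, a ratio of 1.44 between long and short days. CCER2 was at 3.95, 4.28, 9.46 and 8.39 CPM, a ratio of 2.17, and COPS9, a subunit of the COP9 signalosome, was at 34.9, 34.5, 60.4 and 66.6 CPM, a ratio of 1.83. DLK1, a membrane ligand of the Notch family that is shed into fluid, was at 4.92, 3.45, 8.795 and 13.6 CPM (1.41, 0.78 to 2.04). Its Long pools differed from each other more than its Short pools did, yet the groups did not overlap. AVPI1, BCAS4, EMC9, a member of the membrane protein insertion complex, and GPR37L1, an orphan receptor of glia, had differences of 0.39, 0.43, 0.40 and 0.59. RPL36A, a ribosomal protein, and B2M, the light chain of the class I molecules that present antigen, complete the 12 genes (0.47 and 0.40).

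**Figure D3:**
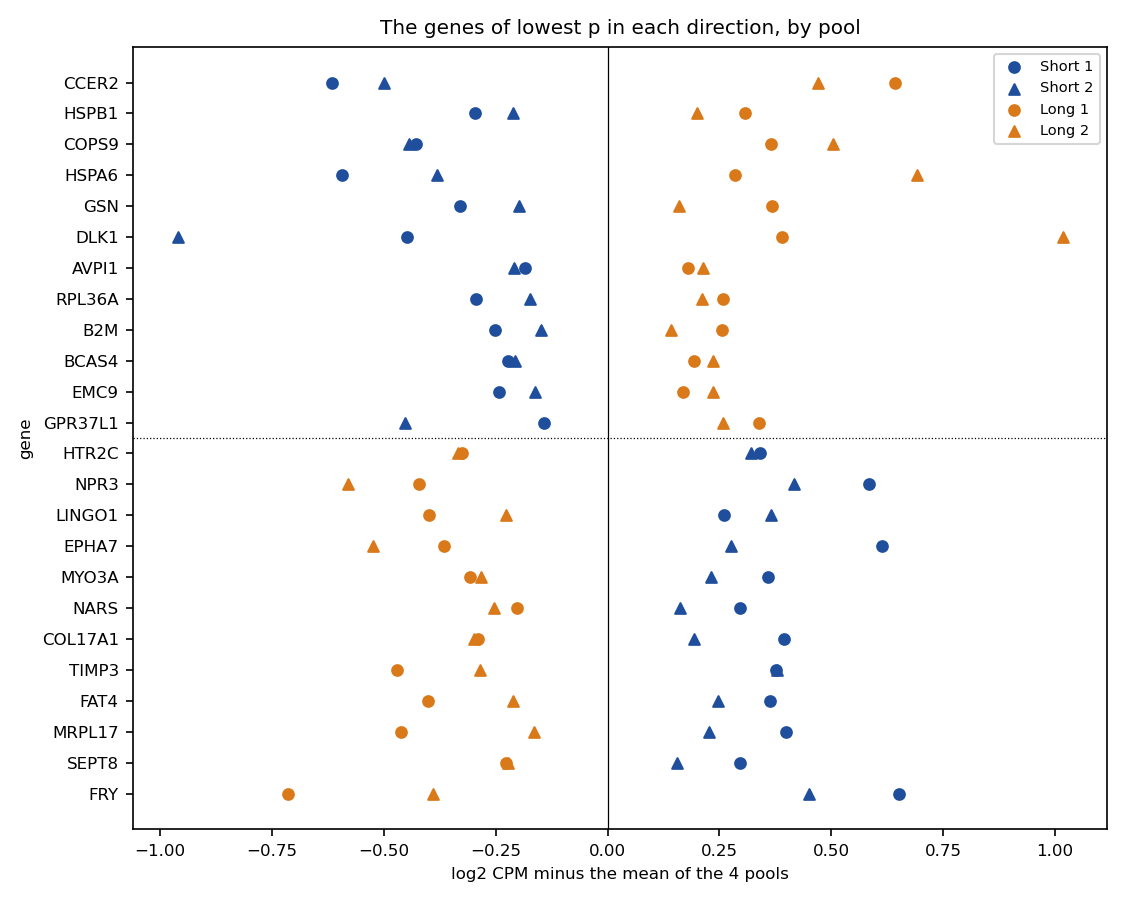
Log2 CPM minus the mean of the 4 pools for the 12 genes of lowest p in each direction (higher in Long above the dotted line, lower below it), with blue for Short and orange for Long pools, circles for pool 1 and triangles for pool 2. HTR2C shows the least spread within its groups, and DLK1 and FRY the largest difference of group means among the genes shown in their direction.

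Several of the differences of largest size were carried by 1 pool. HBB had its value of 53.5 CPM in Long 2 against 1.77 CPM in Long 1 and about 0.5 in the Short pools, so its difference of 5.79 rests on Long 2 and became 1.84 without it. TRIM9, a ubiquitin ligase of neurons, was at 2.53, 10.99, 30.3 and 35.5 CPM (2.32), and Short 1 was the low pool, so that the difference was 3.70 without Short 2. MESP2 was at 1.71, 0.717, 2.25 and 7.47 CPM, and its difference of 1.97 became 0.87 without Long 2. CPVL, a carboxypeptidase, was at 3.004, 4.003, 15.1 and 4.32 CPM, high in Long 1 alone, and its difference of 1.48 became 0.31 without that pool. AGPAT4, an enzyme that makes phosphatidic acid, and TMEM132C had differences of 1.75 and 1.44. In the other direction the pituitary genes GH (−2.83) and POMC (−2.71) came first, at 18.9, 4.38, 1.14 and 2.15 CPM for GH, and without Short 1 they became −1.41 and −1.75. CNGB3, a subunit of the cone photoreceptor channel, was at 20.7, 12.99, 5.92 and 7.64 CPM (−1.31, DESeq2 adjusted p = 0.00899), with all 3 values of Short 2, Long 1 and Long 2 below that of Short 1. The adhesion protein NEGR1 (−1.502), a gene listed under the symbol PR (−1.45) and the cadherin FAT2 (−1.37) ranked between POMC and CNGB3. FAT2 became −0.86 without Short 1, and NEGR1 −0.85 without Long 1 and −2.72 without Long 2.

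Of the 6 genes of highest level that reached an unadjusted p under 0.05, 4 code for secreted proteins. TTR was 1.21 times as high in long days (0.28, 0.051 to 0.50), with both Long pools above both Short pools. CST3, cystatin C, a protease inhibitor of the fluid, was at 2251, 2173, 2615 and 2693 CPM (0.26). PLTP, which transfers phospholipids between lipoproteins, was at 1868, 1912, 2142 and 2222 CPM (0.21), and APOA1, an apolipoprotein, at 1861, 1769, 2409 and 2041 CPM (0.29). Each of these genes was higher in both Long pools, at differences that stay under a fold of 1.5. The other two were RPL7A, a ribosomal protein, higher at 1279.6, 1470.3, 1788 and 1715 CPM (0.35), and SPTBN1, a spectrin under the cell membrane, lower at 2369, 2071, 1775 and 1875 CPM (−0.28).

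In the thyroid hormone axis the 2 receptors lay on opposite sides of 0. THRB was at 24.9, 19.6, 13.4 and 13.5 CPM, higher in both Short pools, with a difference of −0.73 (−1.14 to −0.32, DESeq2 adjusted p = 0.0264). THRA, the other receptor, was at 175, 189, 197 and 191 CPM, a difference of 0.094 whose interval ran from −0.084 to 0.27. Whether the receptors differ from each other in this respect was not tested. The 5 coregulators tested, which join the receptors to transcription and include NCOA2 and MED1, all had values below 0 with no overlap, at a median of −0.32, where 26.8% of all genes were lower without overlap. NCOA2 was at 65.3, 55.6, 45.9 and 46.4 CPM and MED1 at 95.5, 87.4, 70.8 and 70.8 CPM. SELENBP1, a selenium-binding protein, was at 172, 180.1, 217 and 209 CPM (0.28, DESeq2 adjusted p = 0.048). Over the whole list of 23 tested genes of hormone transport, deiodination and receptors, 8 lay above and 15 below 0, with a median of −0.10 against −0.0025 over all genes. The median was −0.019 without Long 1 and −0.19 without Long 2.

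Of 8 tested transporters of thyroid hormone, 2 were lower and 0 higher in long days without overlap, against 26.8% and 26.7% of all genes. SLCO1C1, which carries thyroxine, was at 328, 290.2, 257 and 307 CPM (−0.53 to 0.27), with overlap. DIO2, which makes active hormone, was at 4.77, 5.44, 3.84 and 5.02 CPM and also overlapped (−0.20, −0.66 to 0.26). DIO1 was near 0.15 CPM in the Short pools and 0.18 CPM in the Long pools, and DIO3, which inactivates the hormone, had 8, 3, 10 and 5 counts, too few to be tested. SLC16A10, a carrier of aromatic amino acids and thyroid hormone, was at 177, 151, 127 and 142 CPM (−0.29), with no overlap.

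Genes that respond to thyroid hormone were split evenly. Of 28 tested, 14 lay on each side of 0, and 9 had both Long pools higher and 4 both lower, against 26.7% and 26.8% of all genes. KLF9 was at 99.98, 88.3, 93.2 and 89.9 CPM, with overlap, a difference of −0.040 and an interval of −0.25 to 0.17, and HR, lower in both Long pools, had one of −0.38 to 0.16. Both intervals lie within a fold of 1.5. The lipogenic regulator THRSP was at 2.64, 2.51, 3.3004 and 3.699 CPM (0.44).

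Of 20 genes of the seasonal timing axis, 13 could be tested. TSHR, the thyrotropin receptor, and MTNR1A, the melatonin receptor, were listed at 0 in every pool, which allows up to 0.0621 CPM in the smallest of the 4 pools. EYA3, a long-day coactivator of the pars tuberalis, was at 95.9, 92.04, 83.3 and 81.9 CPM, a difference of −0.19, and TEF, its partner on the TSHB promoter, was at 206, 199.9, 194 and 189 CPM. Both were lower in both Long pools, opposite in sign to TSHB, whose difference of 4.25 turned to −0.66 without Long 2. VGF, a neuroendocrine precursor, was at 0.166, 0.219, 0.196 and 2.999 CPM, again high in Long 2 alone. VMO1, a secreted protein, was at 18.7, 21.3, 35.9 and 23.4 CPM, where Long 1 was the high pool. CHGA, chromogranin A, which stores hormones in granules, was abundant at 5955, 6413, 6745 and 6955 CPM (0.15).

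Among 26 clock genes, 11 lay above and 15 below 0, with a median of −0.032, and 4 were lower and 1 higher at an unadjusted p under 0.05, against 7.33% and 6.47% of all genes. NFIL3, a repressor that opposes the PAR bZIP activators, was at 32.4, 31.01, 42.2 and 45.4 CPM (0.47, 0.22 to 0.71, DESeq2 adjusted p = 0.0264). HLF, one of those activators, was at 9.64, 6.73, 4.53 and 4.86 CPM (−0.80), while DBP and TEF had 0.16 and −0.083. PER2, a repressor of the core loop, was at 43.7, 32.2, 26.9 and 24.9 CPM (−0.55), PER3 at 46.4, 47.8, 42.5 and 36.1 CPM (−0.26), and PER1 at 399, 364, 392 and 365 CPM. NFIL3 was thus higher and HLF, PER2 and PER3 lower in both Long pools, while PER1 overlapped between the groups. The time of day at which tissue was taken was not given in the sources used here. The median of the clock list became 0.027 without Short 1 and −0.089 without Short 2.

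Receptors for hormones and transmitters leaned toward short days. Of 36 tested, 25 lay below 0 (median −0.16), 17 had both Long pools lower and 3 both higher, against 26.8% and 26.7% of all genes. At an unadjusted p under 0.05, 6 were lower and 0 higher, against 7.33% and 6.47% of all genes. The median was −0.085 without Short 2. LEPR, the leptin receptor, which is thought to carry leptin into the fluid, was at 75.6, 63.8, 44.6 and 43.8 CPM (−0.66, −1.08 to −0.23, DESeq2 adjusted p = 0.0424). NR3C1, the glucocorticoid receptor, was at 60.6, 59.01, 49.5 and 51.5 CPM (−0.24), KL, which is also the coreceptor of FGF23, had −0.34, and IGF1R, the receptor of insulin-like growth factors, was at 118, 104, 81.8 and 93.5 CPM (−0.34). The growth hormone receptor GHR was at 15.98, 16.8, 14.1 and 13.5 CPM. In all of these both Short pools were the higher ones.

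The list of prolactin and growth hormone signalling was divided, with 13 of 25 above 0 and a median of 0.0037. CISH and SOCS2, feedback inhibitors that cytokine receptors induce through STAT5, were at 10.6, 11.7, 16.9 and 14.9 CPM and 28.8, 30.2, 34.003 and 34.9 CPM, both higher in long days by 0.52 and 0.22. The prolactin receptor gene was not analysed here. PTPN11, a phosphatase of these pathways, was lower (−0.28). IGF2, a growth factor that the choroid plexus releases into the fluid, was at 619, 531, 408 and 381 CPM (−0.54, −0.87 to −0.22), and IGFBP2, which binds it, was at 1246, 1334, 1731 and 1726 CPM (0.42, 0.15 to 0.69). The 2 genes lay in opposite directions without overlap, and DESeq2 called both (adjusted p = 0.0261 and 0.0384).

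Genes of ion transport and fluid secretion also leaned toward short days. Of 46 tested, 31 lay below 0 (median −0.12), and 8 were lower and 1 higher at an unadjusted p under 0.05 (7.33% and 6.47% of all genes). The median was −0.028 without Short 1 and −0.16 without Short 2. SLC4A10, which brings bicarbonate into the epithelium from the blood side, was at 355, 255, 179 and 188 CPM (−0.73, −1.18 to −0.28), and SLC4A5, which passes it into the fluid, was at 272, 233, 168 and 169.9 CPM (−0.58, −0.97 to −0.19). Short 1 was the highest pool for both, and Short 2 was still above both Long pools. SLC4A8 was at 41.9, 37.7, 27.1 and 30.7 CPM and SLC4A7 at 18.9, 14.1, 11.7 and 12.3 CPM, in the same order of groups. All 6 tested members of this family lay below 0 (median −0.52), and 5 of them had no overlap, where 26.8% of all genes were lower without overlap.

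The 5 subunits of the sodium pump had a median of −0.015, from −0.11 to 0.042, so that all were within a fold of 1.1 of no difference in either direction. AQP1, the water channel of the fluid-facing membrane, was at 154, 157, 145 and 127 CPM (−0.19, −0.41 to 0.024). WNK1, a kinase that senses chloride and drives cotransport, was at 283, 251, 213 and 170.4 CPM (−0.48, DESeq2 adjusted p = 0.0384), whereas WNK4 was at 42.02, 39.5, 44.9 and 55.4 CPM (0.30). The 4 cation-chloride cotransporters tested lay below 0, with SLC12A2, which loads chloride in most secretory epithelia, at 589, 445, 412 and 423 CPM (−0.31).

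Carriers of nutrients, vitamins and drugs were lower in long days in 49 of 63 cases, at a median of −0.13. At an unadjusted p under 0.05, 9 were lower and 2 higher, where 7.33% and 6.47% of all genes were. The median of these carriers was −0.069 without Short 1. SLC23A2, which brings vitamin C into the brain, was at 594, 462, 395 and 402 CPM (−0.41), and SLC16A12, a creatine carrier, at 123, 118, 98.2 and 79.1 CPM (−0.44, DESeq2 adjusted p = 0.0384). SLC46A1, which moves folate with protons, was at 194, 195, 157 and 169 CPM, lower in long days, while FOLR1, the folate receptor that the same epithelium uses for transfer to the fluid, was at 337, 337, 402 and 433 CPM, higher in long days (−0.25 and 0.31). The glucose carrier SLC2A12 had a difference of −0.30 and the scavenger receptor LRP1 of −0.25.

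Secreted proteins of the fluid fell on both sides of 0. Of 47 tested, 26 lay above and 21 below 0, and at an unadjusted p under 0.05, 11 were higher and 4 lower, against shares of 6.47% and 7.33% over all genes. The higher ones include GSN, TTR, CST3, IGFBP2 and B2M. CP, ceruloplasmin, the copper protein that oxidises iron, was at 56.3, 57.9, 47.4 and 38.8 CPM, lower in both Long pools (−0.41, −0.69 to −0.12). The median of the list was 0.021, and it became −0.0145 without Short 1 and 0.22 without Short 2.

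Among lists with 10 or more tested genes, that of the cytosolic ribosome had the highest median. Of 77 tested genes, 75 lay above 0, with a median of 0.35 against −0.0025 over all genes, and 74 had both Long pools above both Short pools, against 26.7% of all genes. At an unadjusted p under 0.05, 70 were higher and 0 lower (6.47% and 7.33% of all genes). DESeq2 called 12 as higher, against 0.465% of all genes to which it gave an adjusted p. The median was 0.34 over 43 large subunit genes and 0.36 over 32 small subunit genes. RPL36A was at 145, 157, 212 and 205 CPM (0.47, 0.25 to 0.68) and RPS6, a target of growth signalling, at 369.7, 393, 504 and 493 CPM. Short 1 was the lowest pool in both of these genes. Over the list, the mean of log2 CPM relative to the 4 pools was −0.25 in Short 1, −0.096 in Short 2, 0.19 in Long 1 and 0.16 in Long 2. With 1 Short or Long pool left out, the median stayed between 0.26 and 0.44.

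Other genes of protein synthesis and of respiration followed the same side. Of 76 mitochondrial ribosomal proteins, 73 lay above 0 (median 0.18), 57 had both Long pools higher (26.7% of all genes), and the first MRPL17 identifier was among the 3 below. MRPL55 and MRPL18 were at 20.5, 20.9, 27.8 and 27.1 CPM and 21.4, 22.8, 28.7 and 28.7 CPM. The 49 translation factors had a median of 0.096, with 37 above 0 and the helicase EIF4A2 at 691, 683, 807 and 816 CPM (0.24, DESeq2 adjusted p = 0.0456). Of 58 nuclear-encoded subunits of the respiratory chain, 55 lay above 0 (median 0.27) and 54 had both Long pools higher, again beside 26.7% of all genes.

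By complex, the median was 0.29 over 36 genes of complex I, 0.16 over 4 of complex II and 0.27 over 15 of ATP synthase, where all 15 lay above 0. NDUFA8, a complex I subunit, was at 85.8, 82.4, 105.1 and 116 CPM, and ATP5MC2, which codes for the ring of the synthase, at 84.9, 90.5, 106 and 109.5 CPM. Most genes of complexes III and IV were not analysed here. At an unadjusted p under 0.05, 34 respiratory genes were higher, against 6.47% of all genes. The median of the respiratory list stayed from 0.22 to 0.32 with 1 Short or Long pool left out. Glycolysis and the pentose phosphate pathway had 23 of 28 above 0 (median 0.15). Of these 28 genes, 2 (7.14%) were higher and 1 lower at an unadjusted p under 0.05, against 6.47% and 7.33% of all genes. Without overlap, 15 were higher and 3 lower, against 26.7% and 26.8%. LDHA, lactate dehydrogenase A, was at 132, 109.7, 150.5 and 176 CPM, where the pools of each group spread widely.

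The lists of antioxidant enzymes and chaperones also lay mostly above 0. Of 45 antioxidant genes, 38 lay above 0 (median 0.19) and 31 had both Long pools higher, against 26.7% of all genes. At an unadjusted p under 0.05, 14 were higher (6.47% of all genes). The median of this list stayed from 0.18 to 0.21 with 1 Short or Long pool left out. GPX1, a glutathione peroxidase, was at 259, 279, 358 and 367 CPM (0.43), GPX4, which protects membrane lipids, at 303, 328, 398 and 380.1 CPM (0.30), and the metallothionein MT3 at 68.4, 61.5, 77.9 and 81.2 CPM (0.29). All 6 peroxiredoxins lay above 0. Of 38 genes of heat shock and the unfolded protein response, 31 lay above 0 (median 0.17), and the median was 0.10 without Short 2. Of these genes 13 were higher and 1 lower at an unadjusted p under 0.05, against 6.47% and 7.33% of all genes.

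HSPA1A, the main stress-induced HSP70, was at 51.95, 30.8, 73.2 and 75.3 CPM (0.84, DESeq2 adjusted p = 0.0149), with Short 2 the lowest pool and both Long pools alike. DNAJB1, its cochaperone, was at 139, 137, 168 and 171 CPM, and FKBP4, a cochaperone of steroid receptors, at 327, 316, 419 and 388 CPM (0.33, DESeq2 adjusted p = 0.0264). In the endoplasmic reticulum SDF2L1 was at 21.5, 20.6, 29.9 and 27.8 CPM, higher in long days, and the stress sensor ATF6 at 105.2, 91.4, 80.8 and 80.1 CPM, lower. Immediate early genes, the first to be transcribed after a stimulus such as handling, had 29 of 33 above 0 (median 0.24, and 0.080 without Short 1 and 0.48 without Short 2), and their level by pool was −0.37 in Short 1, 0.055 in Short 2, 0.27 in Long 1 and 0.048 in Long 2. FOS was at 2.46, 5.82, 12.7 and 8.13 CPM. The level of this list overlapped between the day lengths, and its part in the other differences was not tested.

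**Figure D4:**
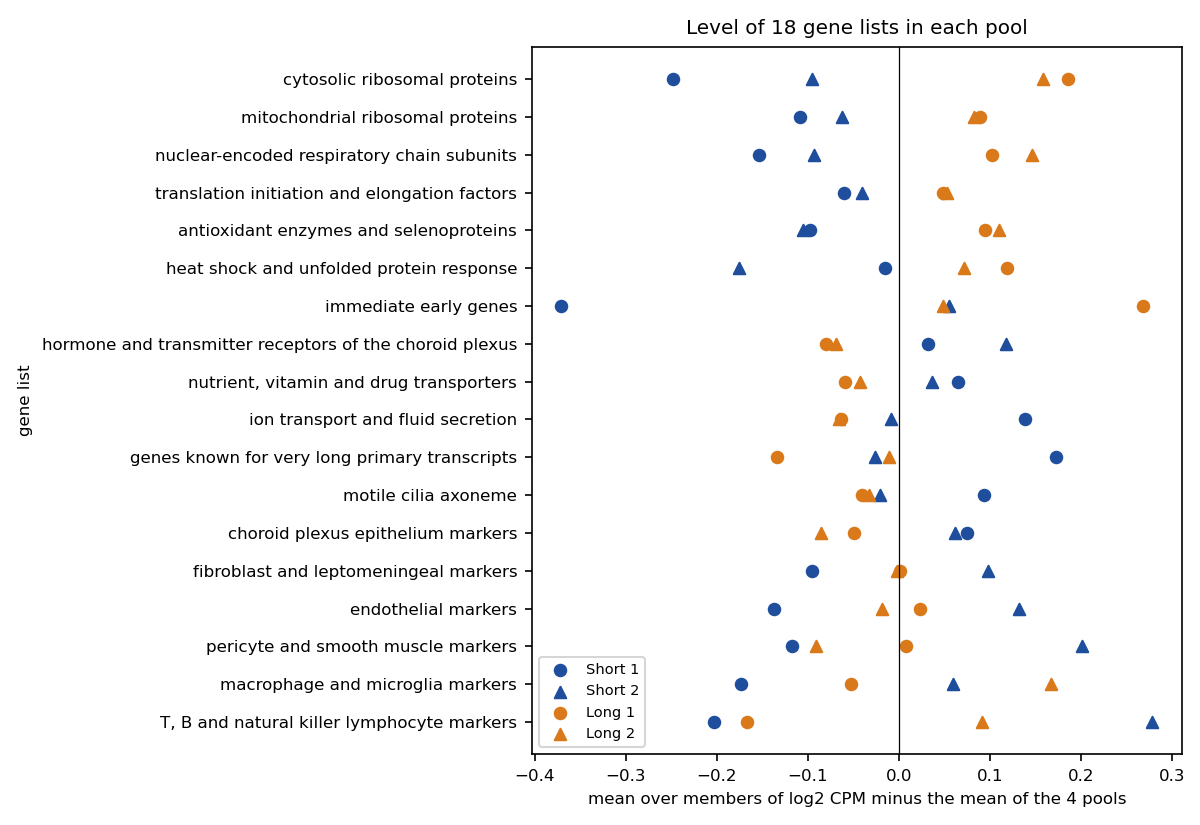
Mean over the members of each of 18 gene lists of log2 CPM minus the mean of the 4 pools, with blue for Short and orange for Long pools, circles for pool 1 and triangles for pool 2. Both Long pools lie to the right of both Short pools for ribosomal, respiratory, translation, antioxidant and chaperone genes. Short 1 lies at the left end of the fibroblast, endothelial, mural, macrophage and lymphocyte lists. Short 2 lies at the right end of these except for the macrophage list, where Long 2 does.

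Matrix and junction genes lay mostly below 0. Of 66 collagens and matrix proteins, 45 lay below 0 (median −0.067), with 23 lower and 7 higher without overlap, against 26.8% and 26.7% of all genes. The median was 0.019 without Short 2 and −0.15 without Short 1. The level of the matrix list was −0.015 in Short 1, 0.094 in Short 2, −0.0036 in Long 1 and −0.076 in Long 2. Its day lengths therefore overlapped, with Short 2 the highest pool. All 18 tested genes of the basement membrane lay below 0, with a median of −0.22 and 12 without overlap (26.8% of all genes). COL4A5, a chain of its collagen, was at 359.9, 274, 236 and 239 CPM (−0.42), and HSPG2, perlecan, at 127, 144, 114 and 103 CPM (−0.32). COL6A3 was at 44.1, 44.9, 36.7 and 28.3 CPM and the crosslinking enzyme LOX at 16.1, 15.3, 11.7 and 11.8 CPM. Both day lengths were separated in each of these 4 genes.

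Of 32 tight junction and barrier genes, 22 lay below 0 (median −0.071, and −0.043 without Short 1). TJP1, the scaffold that anchors claudins to actin, was at 135, 125, 99.9 and 103 CPM (−0.36), and CLDN1, a claudin of choroid plexus junctions, at 34.5, 29.995, 25.4 and 23.2 CPM (−0.41). Both were lower in both Long pools. LRP6, the Wnt coreceptor, was at 239, 169.6, 131 and 134 CPM (−0.63) and the Wnt antagonist SOST at 7.92, 7.01, 5.48 and 5.24 CPM (−0.48), again lower in long days, within a list of 52 Wnt and BMP genes that was divided (28 above and 24 below 0).

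Of 58 genes of motile cilia, 35 lay below and 23 above 0 (median −0.065, and −0.025 without Short 1). Without overlap, 17 (29.3%) were higher and 20 (34.5%) lower in long days, near the 26.7% and 26.8% of all genes. At an unadjusted p under 0.05, 1 was higher and 11 were lower, against 6.47% and 7.33% of all genes. DNAH11, a dynein heavy chain, was at 38.96, 32.9, 24.6 and 26.1 CPM (−0.50, −0.77 to −0.24, DESeq2 adjusted p = 0.0264), and CFAP74, a protein of the central pair, at 131, 113, 88.6 and 87.9 CPM (−0.47). All 10 axonemal dynein heavy chains lay below 0 (median −0.28), and 3 of the 4 intermediate and light chains lay above 0, a difference between subgroups that was not tested. GMNC, a regulator that starts the program of multiple cilia, was at 24.2, 18.7, 13.3 and 11.6 CPM (−0.79, −1.29 to −0.28, DESeq2 adjusted p = 0.0423). NFIB, a transcription factor of the nuclear factor I family, was at 9.899, 8.903, 6.92 and 6.11 CPM (−0.53), and KLF15 was at 96.3, 94.8, 118 and 111 CPM (0.26), on the other side.

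Dynein heavy chains, basement membrane proteins, giant cadherins and LRP6 are coded by long messages, and ribosomal and respiratory subunits by short ones. A separate list of 29 genes, chosen for very long primary transcripts and not for long messages, had 22 below 0, with a median of −0.19. By pool its level was 0.17 in Short 1, −0.027 in Short 2, −0.13 in Long 1 and −0.011 in Long 2, so Short 1 was the highest pool, and Long 2 lay above Short 2. DMD, dystrophin, was at 133, 115, 92.3 and 101 CPM (−0.36), and FTO at 38.9, 34.7, 28.6 and 29.2 CPM (−0.35). The lengths of transcripts and the integrity of the RNA were not analysed here, and their part in the differences above was not tested. Short 1 was also the pool with the most counts.

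**Figure D5:**
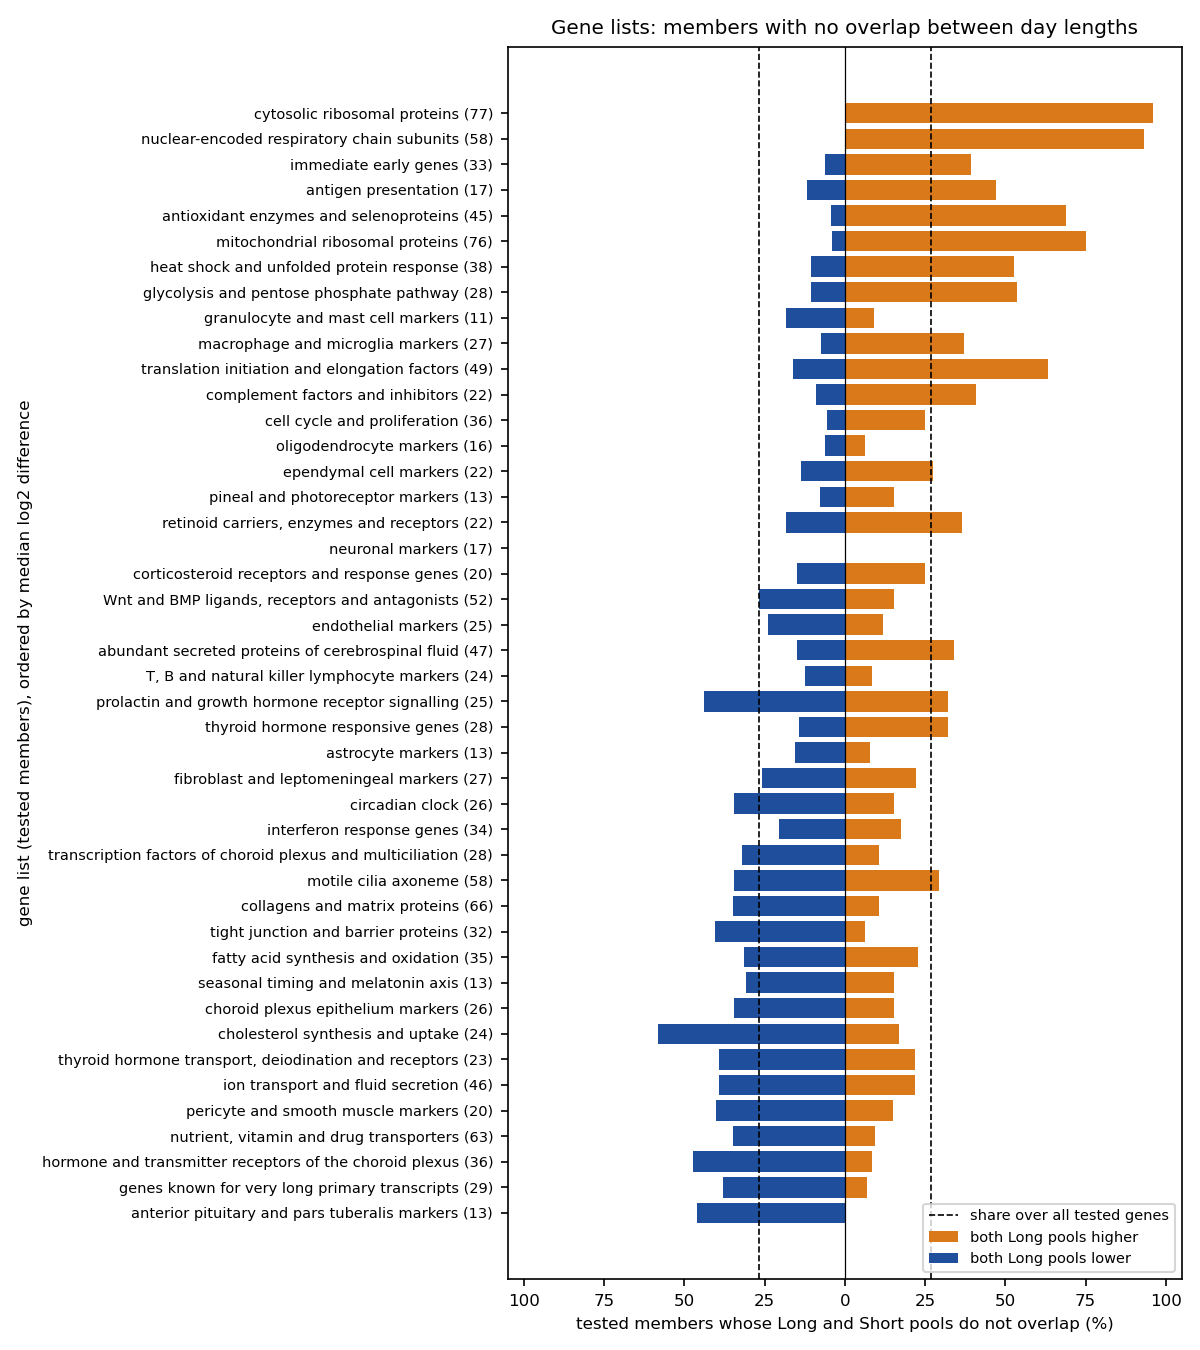
Percent of the tested members of each gene list whose Long and Short pools do not overlap, with orange bars to the right for members higher in both Long pools and blue bars to the left for members lower in both, for lists with 10 or more tested members. The dashed lines mark the shares over all tested genes, 26.7% and 26.8%, and the ribosomal, respiratory, mitochondrial ribosomal and antioxidant lists reach farthest past the right line.

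Lipid and cholesterol genes had medians of −0.079 over 35 and −0.091 over 24 genes, which became −0.023 and −0.040 without Short 1, and the lipid median −0.14 without Short 2. SCD, which makes monounsaturated fatty acids, was at 28.4, 25.99, 17.2 and 15.97 CPM (−0.71), ACACA, which makes malonyl-CoA, at 42.8, 43.7, 36.5 and 31.2 CPM (−0.35), and STARD4, a carrier of cholesterol inside cells, at 8.69, 7.73, 5.12 and 4.84 CPM (−0.72). FABP5, a fatty acid binding protein, was on the other side at 118, 98.8, 148 and 124 CPM (0.33). Of the 24 cholesterol genes, 14 had both Long pools lower and 4 both higher, against 26.8% and 26.7% of all genes.

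Genes of antigen presentation and complement lay mostly on the long-day side. Of 17 antigen presentation genes, 13 lay above 0 (median 0.20, and 0.069 without Short 1 and 0.35 without Short 2), with TAP2, which loads peptides, at 59.97, 63.6, 79.9 and 76.7 CPM (0.34, DESeq2 adjusted p = 0.0229) and PSMB10, a subunit of the immunoproteasome, at 16.8, 19.2, 23.05 and 24.1 CPM. B2M was listed under 2 identifiers with differences of 0.40 and 0.28. Of 22 complement genes, 18 lay above 0 (median 0.083, and 0.22 without Short 2 and 0.18 without Long 1). C1QC was at 52.8, 68.3, 75.2 and 80.7 CPM and CFD, factor D, at 17.3, 25.02, 30.6 and 41.9 CPM. The level of the complement list was −0.15 in Short 1, 0.0221 in Short 2, 0.021 in Long 1 and 0.10 in Long 2. Its day lengths therefore overlapped, with Short 1 the lowest pool. Without overlap, 8 antigen presentation and 9 complement genes were higher, and 2 of each list were lower, against 26.7% and 26.8% of all genes. Interferon response genes had 16 of 34 above 0. The 27 macrophage markers had a median of 0.11 (0.28 without Short 2), and their level was −0.17 in Short 1, 0.059 in Short 2, −0.052 in Long 1 and 0.17 in Long 2, so that the groups overlapped. The part of macrophages in the complement and antigen genes was not tested.

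Marker lists of lymphocytes, mural cells, endothelium and fibroblasts overlapped between day lengths, and that of choroid plexus epithelium did not. The level of lymphocyte markers was −0.20 in Short 1, 0.28 in Short 2, −0.17 in Long 1 and 0.091 in Long 2. Those of pericytes and smooth muscle were at −0.12, 0.20, 0.0077 and −0.091 and those of endothelium at −0.14, 0.13, 0.023 and −0.018 in the same order. In all of these lists the Short pools marked the ends of the range and the Long pools lay between them. Fibroblast and leptomeningeal markers were at −0.096, 0.098, 0.0007 and −0.0025, also with the Long pools inside. Of the single members, RGS5, a pericyte gene, was at 328, 339, 243 and 236 CPM (−0.48), lower in both Long pools. The growth factor receptor PDGFRA, of the fibroblast list, was also lower in both, at 40.6, 36.1, 30.9 and 30.01 CPM (−0.33). TCF21 (0.54) and IGFBP2 (0.42) of the same list were higher in both Long pools. Of the fibroblast list 3 members were higher and 2 lower at an unadjusted p under 0.05, against 6.47% and 7.33% of all genes. Of the mural list 0 were higher and 4 lower. KIT, the receptor of stem cell factor, is on the list of granulocytes and mast cells. It was at 57.4, 50.3, 37.6 and 35.7 CPM (−0.56), lower in both Long pools. Of 17 neuronal markers 0 were separated by day length, where 26.7% of all genes were higher and 26.8% lower without overlap. The 26 markers of choroid plexus epithelium had 18 below 0 (median −0.090). The level of the epithelium list was 0.074 in Short 1, 0.061 in Short 2, −0.0496 in Long 1 and −0.086 in Long 2, so both Short pools were higher, although the summed level of these markers, which TTR dominates, was higher in long days.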

How the data were processed

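Values are raw counts per gene as deposited by the authors, in whole numbers without normalisation. The submitters' processing notes name featureCounts 2.0.0, TopHat2 2.1.1 and SAMtools 1.9, and bcl2fastq 2.20 with FastQC 0.11.8 and MultiQC 1.9. Libraries came from a stranded mRNA kit per the labels' protocols. Which genome build, annotation and strand option served the counting is not given in the sources used here. Values of antisense or overlapping genes and of near-identical copies, such as ribosomal protein pseudogenes, are therefore uncertain. Names were completed from a RefSeq table, which held 28100 of the 33609 identifiers and named 471, and 3742 tested genes had no symbol.

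In R 4.3.3, genes passing the default filter of edgeR 4.0.16 by group were scaled by TMM factors and fitted in all 6 pools with 1 mean per group (3 residual and 3.96 prior degrees of freedom, biological coefficient of variation 0.151). The two-sided quasi-likelihood test of Long against Short used Benjamini-Hochberg adjustment over 18019 genes at a threshold of 0.05. Alternatives used DESeq2 1.42.0, limma 3.58.1, other scalings, filters and pools. Genes were named by a rule: the 12 of lowest p and the 6 of largest difference in each direction (symbol, mean CPM of at least 2, no overlap, and for the latter p under 0.05), the 6 most abundant with p under 0.05, up to 4 of lowest p per list, and 20 set genes. Some genes that the rule names are not reported here. Further members were named, and subgroups by role formed, after their values were seen. The members and the 46 lists were chosen with earlier results of these data known. The scripts were tested on simulated data, and matplotlib 3.10.9 in Python 3.11.15 drew the figures. Genes of the mitochondrial genome were not analysed here.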

Additional observations from a re-analysis of the deposited data

How the results depend on the processing

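The count of 0 called genes stayed 0 with size factors of DESeq2 in edgeR, with total counts, with upper-quartile factors, without a filter, at a mean CPM of at least 5, with the robust fit, with limma-voom, with the 4 thyroid-intact pools alone, and at a threshold of 0.10. DESeq2 called 167. With 1 pool left out the count ran from 0 to 4 and the genes with an unadjusted p under 0.05 from 788 to 3641. The 4 called without Long 1 were HBB, LOC101106199, LOC114118454 and LOC114110673, and the 1 called without Short 2 was LOC114115666, with 1325, 2, 5 and 9 counts in Short 1, Short 2, Long 1 and Long 2. A lone pool is assumed in these fits to vary like the other groups. The overlap of pools was not computed without a Short or a Long pool, for DESeq2 or for voom. Leaving out a pool changed the sign of KLF9 (−0.13 without Short 2 to 0.052 without Short 1), GZMK (−2.08 without Long 2 to 0.067 without Short 2), MBP (−0.63 without Long 2 to 0.025 without Long 1) and TSHB (−0.66 without Long 2 to 5.23 without Long 1). The labels do not say that pool numbers pair the pools, and the deviations of same-numbered Short and Long pools correlated at −0.059 across 18019 genes, so the numbers were not used. With the pool number as a replicate block 0 genes were called and 2988 had an unadjusted p under 0.05. Depth limits genes of few counts, such as DIO3 with 3 to 10 counts in the 4 pools.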

Other observations

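The further lists given below had medians from −0.0072 to 0.13. Of 22 retinoid carriers, enzymes and receptors, 12 lay above 0 (median 0.049). CRABP1, which holds retinoic acid in the cytosol, was at 7.83, 7.61, 18.3 and 10.6 CPM (0.90, 0.27 to 1.53), with Long 1 the highest pool, and RLBP1, a carrier of retinal, was at 57.7, 68.8, 53.2 and 48.3 CPM (−0.32). Corticosteroid receptors and response genes had 12 of 20 above 0 (median 0.037). Cell cycle genes had 24 of 36 above 0 (median 0.081). At an unadjusted p under 0.05, 0 of them were higher and 0 lower, against 6.47% and 7.33% of all genes. The retinoid and cell cycle medians were 0.011 and 0.018 without Short 1, and the corticosteroid median was −0.015 without Long 1. E2F1, a transcription factor of the step into DNA synthesis, was at 1.51, 1.59, 2.32 and 2.098 CPM.

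Markers of ependymal cells had a median of 0.070 over 22 genes, those of astrocytes −0.0072 over 13, those of oligodendrocytes 0.079 over 16, those of granulocytes and mast cells 0.13 over 11 and those of pineal and retina 0.056 over 13. Without Short 1 these medians were 0.013, −0.010, −0.017, −0.022 and −0.0088 in that order.

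Further genes that DESeq2 called were read after their values were seen. ROBO1 and SLIT3, a receptor and a ligand of axon guidance, were at 24.4, 20.4, 10.3 and 14.98 CPM (−0.82) and 97.6, 102, 76.03 and 79.3 CPM (−0.36), and NOTCH2, a receptor that holds cells in an undifferentiated state, was at 162, 155, 124 and 123 CPM (−0.36). VCL, vinculin, and FLNA, filamin A, which tie actin to adhesions, were at 136, 135, 107 and 99.1 CPM (−0.39) and 793, 766, 636 and 634 CPM (−0.30). Each of these genes was lower in both Long pools, and none passed the quasi-likelihood test of edgeR (adjusted p = 0.342). CTSD, a lysosomal protease, was on the other side at 1189.95, 1264, 1459 and 1569 CPM (0.30), as was TUBB4B, a tubulin of cilia, at 373, 328, 443 and 433 CPM (0.32).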
